A study of Mus musculus with 2 samples.

Results

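The genes described here make and use glutathione and thioredoxin, the main thiol antioxidants of the cell, or remove superoxide, peroxides, quinones and haem. They were chosen by name from an array study of mouse osteoblasts. A probe set was taken where its single gene symbol belonged to the glutathione transferases, glutathione peroxidases, peroxiredoxins, superoxide dismutases, thioredoxins or thioredoxin reductases, or was one of 12 further named genes of glutathione synthesis, catalase, sulfiredoxin, quinone and haem metabolism and their control. This gave 94 of 45037 probe sets, which stand for 52 of 18193 genes.

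The study followed primary osteoblasts, the cells that build bone. The cells came from calvariae (skull roof bones) of newborn mice and were negative for CD11b, a surface protein of myeloid cells, per the labels. Both groups were grown with 50 µg/ml ascorbic acid, which collagen synthesis requires, and 10 mM β-glycerophosphate, a phosphate source for mineral. RNA taken at day 12 and RNA taken at day 5 were each hybridised to 1 Affymetrix array. The labels name no strain, genotype or further treatment, and do not say how many mice were pooled. There was 1 array per day, so no difference below has a replicate check, an SD or a p-value, and each compares these 2 arrays.

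Glutathione is made in 2 steps, by glutamate-cysteine ligase and then glutathione synthetase. Glutathione peroxidases oxidise it while reducing peroxides, glutathione reductase restores it with NADPH, and transferases couple it to reactive compounds. Thioredoxin works in parallel. It hands electrons from thioredoxin reductase to the peroxiredoxins, which take up hydrogen peroxide. Many of these genes are induced by the transcription factor NRF2 (gene Nfe2l2), which KEAP1 keeps low by marking it for degradation, and which binds antioxidant response elements in DNA. Osteoblasts secrete large amounts of disulfide-bonded and cross-linked protein, and the oxidases that form those bonds produce hydrogen peroxide.

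Of 42 measured antioxidant genes, 25 (59.5%) differed by less than 1.25-fold between the arrays, where 64.1% of all measured genes did. Those that differed most were glutathione transferases and the quinone reductase gene Nqo1, lower at day 12, and the secreted peroxidase gene Gpx3, higher. Signal is the brightness of a probe set on a linear scale, and each gene is given by its brightest probe set. A floor at the 60th percentile of each array, 44.8 at day 12 and 46.6 at day 5, separated measured from dim genes. Of the 52 genes, 42 were measured, meaning at or above the floor on at least 1 array, and 39 of these were so on both. A value under the floor on 1 array was raised to it, which makes the fold a bound, written as "at least".

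None of the 42 was at least 2-fold higher at day 12, where 3.56% of all 10479 measured genes were. At least 2-fold lower were 2 of them, Nqo1 and Gstm6 (4.76%), where 1.73% of all measured genes were. With a 1.5-fold limit, 1 member was higher, where 7.25% of all genes were. By that limit 7 members (16.7%) were lower, where 7.7% of all genes were. A lower signal of any size was seen in 28 of the 42, or 66.7%, where 56.4% of all measured genes had one, and a higher one in 14 (33.3%), where 43.6% had one. The members' median log2 ratio of day 12 over day 5 was -0.13, with quartiles of -0.40 and 0.07. For all measured genes the median was -0.05 and the quartiles were -0.27 and 0.17.

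Transferases and the remaining members are given apart, since most of the larger differences lay among transferases. Of 14 measured transferase genes, 11 were lower at day 12, 5 of them by at least 1.5-fold, and their median log2 ratio was -0.44. Of the 28 other members, 17 were lower, 2 of them by at least 1.5-fold, and their median was -0.07. Within 1.25-fold of equal signal were 4 of the 14 transferases and 21 of the 28 others, where 64.1% of all measured genes were. Whether transferases differ from the other members was not tested.

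**Figure D1:**
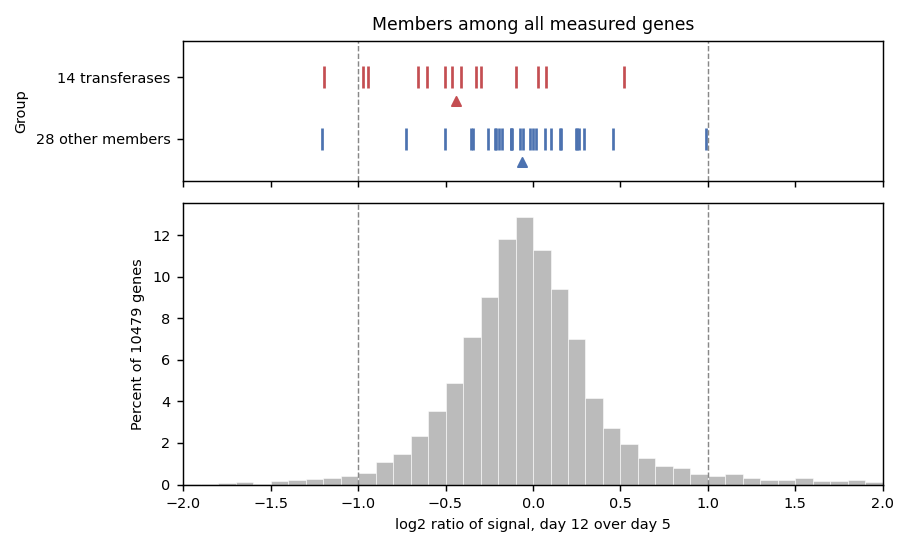
Distribution of the log2 ratio of signal, day 12 over day 5. The lower panel is a histogram of all 10479 measured genes as percent of genes per bin (the ends beyond -2 and 2 are not drawn). In the upper panel each tick is 1 gene, the triangles are medians (-0.44 for 14 transferases, -0.07 for 28 other members), and dashed lines mark 2-fold.

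The antioxidant genes stand in cultures in which some other gene lists differed far more. These lists were chosen with earlier results of these data known, so their counts are descriptions and not tests. All 13 measured hypoxia-induced genes were at least 2-fold higher at day 12, where 3.56% of all measured genes were. Their median log2 ratio was 2.91. The 13 were Egln3, Ndufa4l2, Ankrd37, Car9, Ak4, Slc2a1, Bnip3, Vegfa, Pfkfb3, Pdk1, P4ha1, Egln1 and Ddit4. Of 7 osteoblast and osteocyte markers, each above the floor at day 12, 6 were at least 2-fold higher. Chondrocyte markers were lower by any size in 7 of 7 measured, where 56.4% of all measured genes were. At least 2-fold lower were 4 of the 7, where 1.73% of all were. Their summed signal over the 8 of the list was 8837 at day 12 and 20330.4 at day 5. Matn1, Snorc and Ucma lay below the floor at day 12, so their ratios are bounds. Myeloid markers were at least 2-fold higher in 9 of 9 measured, with sums of 12522 at day 12 and 4976 at day 5, although Itgam, which encodes CD11b, was below the floor on both arrays (35.4 at day 12 and 14.6 at day 5). Erythroid and endothelial markers were below the floor on both arrays in 3 of 3 and 5 of 5 genes. Of 5 smooth muscle and pericyte markers 4 were measured (median -0.39), of 3 adipocyte markers all 3 were (-0.75), and of 5 osteoclast markers 2 were (0.06). In such mixed RNA, fewer cells of a type and less RNA per cell cannot be told apart. The part of these other cells in the values of Nqo1, the transferases, Gpx3, Selenop, Ncf1 and Cybb was not tested.

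The starting enzymes of glutathione synthesis differed little. Gclc, the catalytic subunit of glutamate-cysteine ligase, had signals of 197 at day 12 and 249 at day 5, a log2 ratio of -0.34. Its modifier subunit, Gclm, had 947 at day 12 and 1032 at day 5 (log2 ratio -0.12). Gss, glutathione synthetase, had 283 at day 12 and 328 at day 5 (-0.22). All 3 synthesis genes were thus lower at day 12 by at most 1.27-fold, and the second probe set of each was also lower, with log2 ratios of -0.28, -0.28 and -0.18. Gsr, glutathione reductase, which restores the oxidised form, went the other way. It had 228 at day 12 and 186 at day 5, a log2 ratio of 0.29, and 0.59 in its other probe set.

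Glutathione transferases are grouped in classes by sequence, and the theta class was lower at day 12 in each of its 3 measured genes. Gstt1 had signals of 226 at day 12 and 435 at day 5 (1.92-fold lower, log2 ratio -0.94). Gstt3 had 214 at day 12 and 304 at day 5 (-0.51), and Gstt2 had 102 at day 12 and 128 at day 5 (-0.32). In the RefSeq gene table these genes are neighbours on chromosome 10 together with Gstt4, which was below the floor on both arrays. Gstt1 lay far down the list of all genes, since 2.03% of measured genes had a lower ratio.

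The mu class forms a cluster on chromosome 3, and 5 of its 7 genes with a probe set were measured. Gstm6 had a signal of 30.4 at day 12, which is below the floor, and 102 at day 5, so it was at least 2.29-fold lower. Gstm1 had 319 at day 12 and 440.0 at day 5 (log2 ratio -0.46), Gstm2 had 806 at day 12 and 1074 at day 5 (-0.41), and Gstm5 had 2215 at day 12 and 2719.8 at day 5 (-0.30). Gstm4 differed from its neighbours, with 149 at day 12 and 142 at day 5 (0.08). The coding sequences of this class are alike, and short probes can bind several of its transcripts. One of 3 measured probe sets of Gstm1 gave a log2 ratio of 0.40 beside -0.46 and -0.47 in the others, so the value of any single mu gene is uncertain.

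The membrane-bound transferases, which are unrelated in sequence to the soluble ones, were split. Mgst1, found in the endoplasmic reticulum and the outer mitochondrial membrane, had signals of 396 at day 12 and 625 at day 5 (1.58-fold lower). Mgst2 had 32.8 at day 12, below the floor, and 88.0 at day 5, at least 1.97-fold lower. Mgst3 was higher instead, with 686 at day 12 and 478 at day 5 (1.43-fold, log2 ratio 0.52), the highest ratio of any measured transferase.

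The remaining classes had 1 measured gene each. Gsta4, the alpha-class enzyme that couples glutathione to 4-hydroxynonenal, a product of lipid peroxidation, had signals of 114 at day 12 and 174 at day 5 (1.52-fold lower). Gstp1, which encodes the abundant pi-class enzyme, had 5090.0 at day 12 and 4988 at day 5 (log2 ratio 0.03), with a probe set that could also bind its near-identical neighbour Gstp2. Gsto1, an omega-class enzyme with glutaredoxin-like activity, had 747 at day 12 and 799.6 at day 5 (-0.10). The brightest probe sets of 7 transferase genes lay below the floor on both arrays. These were Gsta2, Gsta3, Gstm3, Gstm7, Gsto2, Gstp3 and Gstt4, with signals from 1.13 to 33.4 at day 12 and from 0.399 to 20.3 at day 5, and no ratio is given for them.

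Among the glutathione peroxidases, Gpx3 stood apart. This gene encodes the selenium-containing peroxidase that cells secrete and that circulates in plasma. Its signal was 2878 at day 12 and 1448 at day 5, a 1.99-fold difference just under the 2-fold limit, and 3.57% of measured genes had a higher ratio. It has a single probe set, so no repeat measurement is at hand. The intracellular selenoenzymes differed little. Gpx1, the cytosolic enzyme, had 3956 at day 12 and 4000.4 at day 5 (log2 ratio -0.02). Gpx4, which reduces lipid peroxides inside membranes and holds off ferroptosis, had 3417 at day 12 and 3735 at day 5 (-0.13).

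Gpx7 and Gpx8 are peroxidases of the endoplasmic reticulum that use cysteine in place of selenocysteine and help to turn hydrogen peroxide into disulfide bonds. Gpx7 had 3093 at day 12 and 3696 at day 5 (log2 ratio -0.26), and Gpx8 had 4305 at day 12 and 4007 at day 5 (0.10). They differed by at most 1.19-fold, in opposite directions. Gpx2, Gpx5 and Gpx6, known from the gut, the epididymis and the olfactory epithelium, were below the floor at both times. Their signals ranged from 1.70 to 16.5 at day 12 and from 2.50 to 8.88 at day 5.

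**Figure D2:**
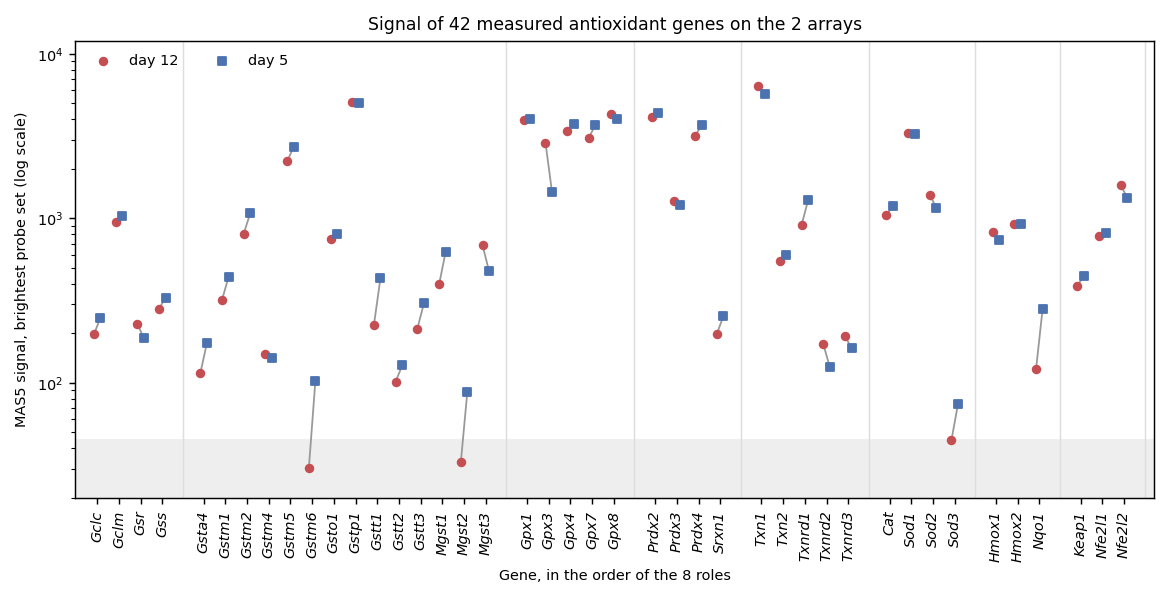
Signal of the 42 measured genes on the day 12 array (red circles, left) and the day 5 array (blue squares, right), on a log axis, with 1 array per day and a grey line joining the values of a gene. The shaded band lies below the floor of both arrays. Gpx3 lies at 2878 on day 12 and 1448 on day 5, Nqo1 at 122 on day 12 and 281 on day 5, and heights are not comparable between genes because each probe set has its own efficiency.

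Peroxiredoxins differ by compartment, and the 3 measured differed by at most 1.16-fold in their brightest probe sets. Prdx2, cytosolic, had signals of 4136 at day 12 and 4351 at day 5 (log2 ratio -0.07), although its dimmer probe set gave -0.63. Prdx3, of the mitochondrial matrix, had 1271 at day 12 and 1209.8 at day 5 (0.07). Prdx4, of the endoplasmic reticulum, had 3183 at day 12 and 3689.7 at day 5 (-0.21), and its other measured probe sets gave -0.15 and -0.07. Srxn1, sulfiredoxin, which repairs over-oxidised peroxiredoxins and is a well-known NRF2 target, had 199 at day 12 and 255 at day 5 (-0.36). Its 3 measured probe sets spanned only -0.36 to -0.30. Other peroxiredoxins were not analysed here.

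The thioredoxin system showed opposite differences in its cytosolic and mitochondrial reductases by the brightest probe set. Txnrd1, the cytosolic selenoenzyme, had signals of 912 at day 12 and 1291 at day 5, 1.42-fold lower. Txnrd2, its mitochondrial counterpart, had 171 at day 12 and 125 at day 5, 1.37-fold higher. The probe sets of Txnrd2 disagreed, however, with log2 ratios from -0.21 to 0.46 over 3 of them, so its direction is not settled. Txnrd3, which is best known from testis, had 193 at day 12 and 162 at day 5, and its 3 probe sets ranged from -0.03 to 0.67. The substrates differed less than Txnrd1. Cytosolic Txn1 had 6378 at day 12 and 5703 at day 5 (0.16), and mitochondrial Txn2 had 548 at day 12 and 595 at day 5 (-0.12).

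Superoxide dismutases turn superoxide into hydrogen peroxide in separate places. Sod1, cytosolic, had signals of 3296 at day 12 and 3260.5 at day 5 (log2 ratio 0.02). Sod2, the manganese enzyme of mitochondria, had 1393 at day 12 and 1159.5 at day 5 (0.26), and each of its 3 measured probe sets was higher at day 12. Sod3, the extracellular enzyme, had 44.7 at day 12, just under the floor, and 74.1 at day 5, at least 1.65-fold lower. Cat, catalase of peroxisomes, had 1048 at day 12 and 1185 at day 5 (-0.18), and -0.30 in its other probe set. Gpx3 and Sod3, which encode secreted enzymes, were thus past 1.5-fold in opposite directions, while Sod1, Sod2 and Cat were not. The value of Sod3 rests on 1 probe set near the floor. Its other probe set was below the floor on both arrays (25.9 at day 12 and 35.2 at day 5).

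Nqo1 and Gstm6 were the members past 2-fold, and they cannot be ranked because the value of Gstm6 is a bound. Nqo1 encodes a quinone reductase and is among the most widely used NRF2 target genes. Its signal was 122 at day 12 and 281 at day 5, 2.31-fold lower (log2 ratio -1.20), and 1.0% of measured genes had a lower ratio. The gene has 1 probe set. A floor at the 75th percentile, which lies above its day 12 signal, gave a log2 ratio of -0.68. The haem oxygenase genes did not follow it. Hmox1, the inducible enzyme and another NRF2 target, had 828 at day 12 and 743 at day 5 (0.16). Hmox2, the constitutive enzyme, had 917.2 at day 12 and 917.6 at day 5 (0.00).

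The regulators themselves differed by at most 1.18-fold. Nfe2l2 (NRF2) had signals of 1584 at day 12 and 1337 at day 5 (log2 ratio 0.24), and Nfe2l1, a related factor, had 781 at day 12 and 813 at day 5 (-0.06). Keap1, the adaptor that directs NRF2 to degradation, had 389.9 at day 12 and 446 at day 5 (-0.19), while its dimmer probe set gave 0.17. NRF2 is controlled mainly through protein stability, which an RNA measurement does not show.

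**Figure D3:**
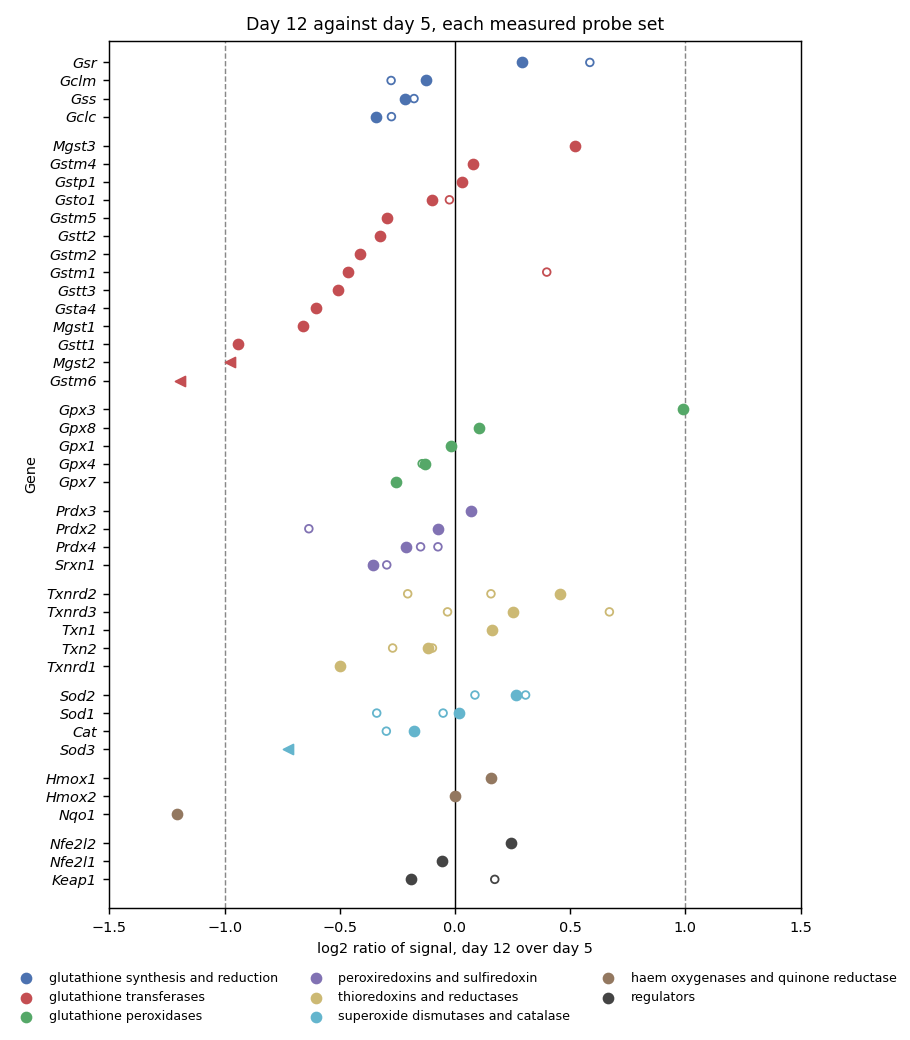
The log2 ratio of signal, day 12 over day 5, for the 42 measured genes, by role. Filled points are the brightest probe set, open circles other measured probe sets, triangles bounds set by the floor (Gstm6, Mgst2 and Sod3), and dashed lines 2-fold; Nqo1 (-1.20) and Gstm6 (-1.19) lie beyond the line on the left, Gpx3 (0.99) just inside that on the right.

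The only repeat measurement in the data is that of several probe sets for 1 gene. Of 17 members with at least 2 measured probe sets, the brightest pair had the same sign in 14 (82.4%), where 3283 of 4446 genes of all kinds (73.8%) did, and all measured probe sets shared a sign in 12. The median difference between the pair was 0.07 on the log2 scale, and 0.17 over the genes of all kinds. This covers probe error and not differences between cultures. A median sets no limit on the probe error of a given gene. The largest differences between the pair were 0.56 in Prdx2, 0.37 in Keap1 and 0.30 in Txnrd2. The pair also leaves out dimmer probe sets. In Gstm1 it differed by 0.0006, although another measured probe set gave 0.40 beside -0.46. The ratios of Gpx1, Sod1, Hmox2 and Gstp1 were closer to 0 than either median. Of these, Gpx1, Hmox2 and Gstp1 have 1 probe set each, so their own probe error is not known.

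The antioxidant response element is the DNA sequence that NRF2 binds with small MAF proteins, and its core was searched in the promoters as TGACNNNGC, on both strands. Each promoter window ran from 250 bases before to 50 after the start of a gene (RefSeq, GRCm38.p6), and 36 of the 42 measured genes had one. The core was present in 7 of the 36 (19.4%), where 16.9% of the 8551 measured genes with a window had it, a share near that of the members. Nqo1 had no match in this window, which says only that these letters are not in it. The stretches around the core are shown for the 6 measured genes in which it lay upstream of the start (in Srxn1 it lay after it), with the core in capitals. They are written 5′ to 3′ in the direction of the gene, with up to 20 bases on each side.
Txnrd1, chr10:82859094-82859142, plus strand: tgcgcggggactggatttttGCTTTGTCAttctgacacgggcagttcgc
Mgst1, chr6:138140451-138140499, plus strand: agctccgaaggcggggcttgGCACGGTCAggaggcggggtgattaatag
Gstm5, chr3:107895792-107895840, plus strand: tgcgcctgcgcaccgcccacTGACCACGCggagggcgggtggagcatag
Gclm, chr3:122245403-122245451, plus strand: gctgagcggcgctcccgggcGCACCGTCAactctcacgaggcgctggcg
Sod1, chr16:90220686-90220734, plus strand: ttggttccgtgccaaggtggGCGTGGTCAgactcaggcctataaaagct
Nfe2l2, chr2:75704875-75704913, minus strand: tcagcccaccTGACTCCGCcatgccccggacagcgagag

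In Txnrd1, Mgst1, Gclm and Sod1 the core lies on the strand opposite to the gene, and its reverse complement is in capitals. The core starts 92 bases upstream of the start in Txnrd1, 56 in Mgst1 and in Sod1, 42 in Gstm5, 134 in Gclm and 240 in Nfe2l2. Of these 6 genes Txnrd1, Mgst1, Gstm5 and Gclm were lower at day 12 (log2 ratios of -0.50, -0.66, -0.30 and -0.12), while Sod1 (0.02) and Nfe2l2 (0.24) were not. A match is a sequence description and not evidence of binding.

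Other genes of the same pathways were taken from lists, which were drawn up with earlier results of these data known. Of 21 measured further glutathione genes, 1 was at least 2-fold higher and none at least 2-fold lower, with a median log2 ratio of -0.08. The exception was Chac1, which breaks glutathione down in the cytosol and is induced by the integrated stress response. It had signals of 657 at day 12 and 111 at day 5, 5.90-fold higher, in its single measured probe set. Glrx, glutaredoxin, was lower in both of its measured probe sets, with 386 at day 12 and 722 at day 5 (1.87-fold). Ggct, which converts gamma-glutamyl amino acids, had 260.0 at day 12 and 432 at day 5 (1.66-fold lower). Hpgds, a prostaglandin synthase of the sigma transferase class, was at least 1.68-fold higher. Slc7a11, the cystine carrier that feeds glutathione synthesis, was below the floor on both arrays, with 13.6 at day 12 and 6.97 at day 5.

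Among 12 further thioredoxin-fold and methionine sulfoxide reductase genes, 9 were lower at day 12, with a median of -0.11, and 1 was past 2-fold. That gene was Txnip, whose product binds and inhibits thioredoxin, 3.45-fold lower with 221 at day 12 and 763 at day 5. Msrb2, a mitochondrial reductase of oxidised methionine, had 109 at day 12 and 205 at day 5 (1.88-fold lower). Nxn, nucleoredoxin, had 522 at day 12 and 801 at day 5 (1.54-fold lower).

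Genes of pathways that supply NADPH, the electron donor of both systems, had a median of -0.01 over 14 measured, and none passed 2-fold. The list is not limited to enzymes that themselves make NADPH, so its ratios do not measure NADPH supply. The genes with the largest ratios belong to mitochondria and folate metabolism. Mthfd1l had 675 at day 12 and 347 at day 5 (1.95-fold higher), and Nadk2, the mitochondrial NAD kinase, had 422 at day 12 and 255 at day 5 (1.66-fold higher). Mthfd2 had 1104 at day 12 and 718 at day 5 (1.54-fold higher). Me1, malic enzyme, was close to it (1.51-fold higher). Idh2 and Nnt, whose products also lie in mitochondria, had log2 ratios of 0.02 and -0.05. Enzymes of the pentose phosphate pathway had log2 ratios of 0.29 for Tkt, -0.05 for Pgls, -0.06 for Pgd and -0.30 for Taldo1. H6pd, a related enzyme, had -0.49. G6pdx of the same pathway was on the list but had no probe set with a single gene symbol, so the pathway is not fully covered.

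The 24 other measured NRF2 partners and targets had a median of 0.02, and none passed 2-fold. Cbr3, a carbonyl reductase, had 344 at day 12 and 654 at day 5 (1.90-fold lower), the furthest from equal in the list. The next were Me1, malic enzyme (2099 at day 12 and 1387 at day 5, 1.51-fold higher), and Ugdh, which makes UDP-glucuronate (2224 at day 12 and 1500.0 at day 5, 1.48-fold higher). Fth1, the ferritin heavy chain, had a log2 ratio of 0.00 and Sqstm1, an autophagy adaptor that binds KEAP1, of 0.25. Targets of NRF2 outside the glutathione and thioredoxin families thus lay on both sides of equal signal. Me1, Pgd, Tkt and Taldo1 stand in this list and in that for NADPH.

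Of 19 measured genes for other selenoproteins and for inserting selenocysteine, 1 was past 2-fold, and the median was -0.06. It was Selenop, the secreted selenium carrier, with 3494 at day 12 and 1529.5 at day 5 (2.28-fold higher). Gpx3 and Selenop, both secreted selenoproteins, were at 1.99-fold and 2.28-fold the day 5 signal. The next ratios of the list were 0.45 for Scly, which frees selenium from selenocysteine, and -0.44 for Msrb1, a methionine sulfoxide reductase. Sephs2, which makes the selenium donor, had a log2 ratio of -0.35 and was lower in all of its 3 measured probe sets.

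Enzymes that produce oxidants were higher at day 12 in part. Of 12 measured, 3 were at least 2-fold higher, where 3.56% of all measured genes were. None was at least 2-fold lower, where 1.73% of all were. The median log2 ratio was 0.36, with 7 genes higher by any size and 5 lower. It lies between the values of Cyba (0.35) and Ncf4 (0.37). Among the 7 were Cyba, Cybb, Ncf1, Ncf4 and Rac2, which encode parts of the phagocyte NADPH oxidase and so are not separate oxidant sources. The values of Ncf4 and Rac2 are bounds set by the floor, as is that of Xdh among the 5 lower genes. The part of myeloid cells in the oxidase genes was not tested. Ncf1 and Cybb, subunits of the phagocyte NADPH oxidase, had 441 and 198 at day 12, against 60.4 and 52.8 at day 5 (7.30-fold and 3.74-fold higher). Their lowest probe sets gave only 0.48 and -0.03. Ero1a, which oxidises protein disulfide isomerase in the endoplasmic reticulum and yields hydrogen peroxide, had 1467 at day 12 and 405 at day 5 (3.62-fold higher). Its 3 probe sets gave log2 ratios from 1.86 to 2.48, whereas the peroxidases of the same compartment, Prdx4, Gpx7 and Gpx8, differed by at most 1.19-fold.

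**Figure D4:**
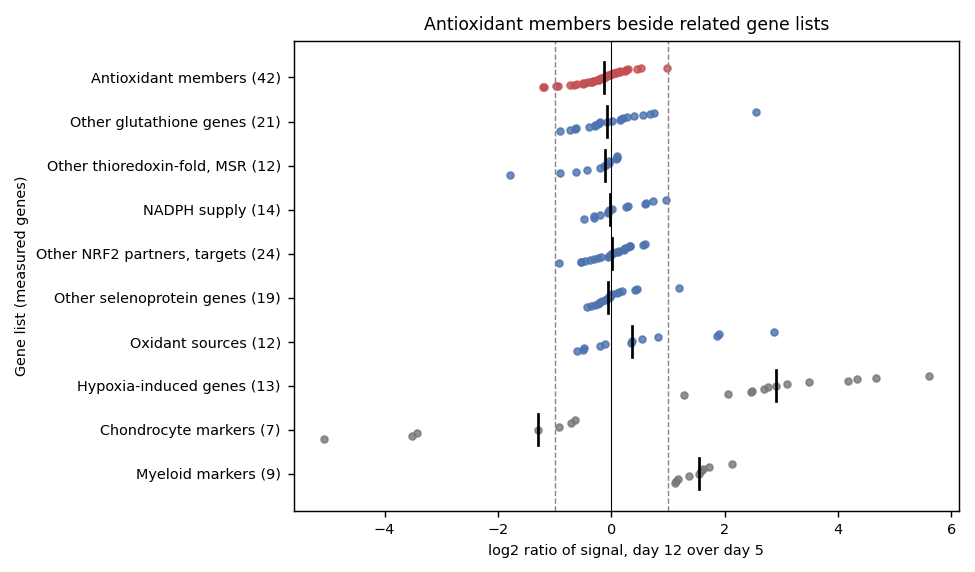
The log2 ratio of signal, day 12 over day 5, of each measured gene in 10 lists, with the number of genes in brackets, medians as black bars and dashed lines at 2-fold (MSR, methionine sulfoxide reductases). The members' median is -0.13, beside 2.91 for hypoxia-induced genes, -1.29 for chondrocyte and 1.54 for myeloid markers.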

How the data were processed

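RNA from mouse calvarial cells at day 12 and day 5 was labelled from 5 µg and hybridised to 1 array each, per the labels' protocols. GCOS 1.4 and MAS5 are named, per the submitters' processing notes, without settings. The authors deposited signal intensity per probe set on a linear scale. The mean after trimming 2% at each end was 200.0 on both arrays, so they share a scaling target, and a change in total RNA per cell cannot be seen. For the genome build behind the probe annotation, the entry is "not given in the sources used here".

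Of 45101 probe sets, 64 were controls. Of the other 45037, 34945 had 1 symbol in the platform annotation, 932 several and 9160 none. Of the single symbols, 34741 were matched by Entrez number to the RefSeq genes (GRCm38.p6), whose symbol was then used. Each gene takes its brightest probe set (mean log2 signal over both arrays), with a floor at the 60th percentile and a limit of 2-fold. The number of arrays limits the precision, and no test was possible. For 20 of 10479 measured genes, no member among them, the sign of the ratio comes from the unequal floors. The text names every member, and of each pathway list the genes past 2-fold and the 3 with the largest ratio. Cell type markers are given by counts, sums and medians. Ggct, Slc7a11, Fth1, Sqstm1, Sephs2, Idh2, Nnt, H6pd, Cyba, Ncf4, Rac2, Xdh, the pentose phosphate genes and single markers were added with their values seen. Members and lists were chosen with earlier results of these data known. Alternatives were median centring, quantile normalisation, loess, other floors (percentile 50 or 75), a pseudocount of 16 instead of a floor, the median of all probe sets per gene, removal of shared-sequence probe sets, and limits of 1.5-fold or 3-fold. Planted changes were tested on simulated data. Versions were statsmodels 0.14.6, scipy 1.17.1, pandas 2.3.3 and numpy 2.4.6 under Python 3.11.15.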

Additional observations from a re-analysis of the deposited data

How the results depend on the processing

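The members' median log2 ratio stayed below 0 under all 8 other ways of processing, from -0.19 to -0.11, and that of the transferases from -0.44 to -0.37. Of the 42 members, 27 were below 0 and 12 above it under every setting that gave a value, and Gstp1, Hmox2 and Sod1 were on both sides. All settings reprocess the same arrays, so these counts do not measure repeatability. For a gene above the floor on both arrays, a pseudocount or a lower floor cannot change the sign. The 27 include Keap1 and the 12 include Txnrd2, although the probe sets of each disagree in sign. The count of members at least 2-fold lower was 0 with the 75th percentile floor and 1 (Nqo1) when probe sets of shared sequence were left out, and 7 at 1.5-fold and 0 at 3-fold. It was 3, with Mgst2 added, with the 50th percentile floor and with a pseudocount. No member was at least 2-fold higher under any of these 8, and 1 passed 1.5-fold. Over all genes, 223 were higher and 74 lower with the 75th percentile floor, 297 were lower with the 50th percentile floor, 760 were higher and 807 lower at 1.5-fold, and 175 were higher and 36 lower at 3-fold. The median of the other pathway lists together was -0.036 and turned to 0.0154 after loess, as did that of other glutathione genes (0.0154). That -0.036 is the value of Bach2, which lay below the floor at day 5 and owes its sign to the unequal floors of the arrays, and without Bach2 the median was -0.031. The NADPH list turned to 0.00685 under quantile normalisation, 0.0445 after loess, 0.0212 with the 50th percentile floor, 0.00291 with the median over probe sets and 0.188 when shared-sequence probe sets were left out. The causes were not tested. No paired analysis was possible because there was 1 array per day. Gstm6, Mgst2 and Sod3 lay below the floor at day 12, so their ratios depend on where it is set, while that of Nqo1, above the floor used on both arrays, moved to -0.68 when the 75th percentile was taken.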
